A study of Mus musculus with 3 samples.

Results

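Complement is a set of plasma and cell surface proteins that tags microbes and damaged cells, draws in leukocytes and opens pores in membranes. The genes described here are 9 central complement genes: C1qa, C1qb and C1qc, C4b, C3, Hc, Cfb, Cfd and Cfi. They were found by gene symbol in the platform annotation of the arrays. Of the 9, 7 were matched, each by 1 probe set, among 22180 named genes. C3, the hub of the cascade, and Cfd, the protease that activates factor B, had no row under their symbols and are not analysed here. RNA was measured on 3 mouse whole-transcript arrays, 1 per group. FULA 1 is a mouse lung adenocarcinoma cell line grown in serum-containing medium. The urethane lung came from FVB mice taken 1 week after an intraperitoneal dose of urethane (ethyl carbamate), a carcinogen that gives lung tumours in mice. The saline lung came from FVB mice injected with saline, at a time not given in the sources used here. FVB is an inbred strain, and FULA 1 stands for 1 cell line. How many mice were behind each lung array is not given either. With 1 array per group there was no replicate spread and no test, so each difference below compares arrays and not conditions.

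Most plasma complement is made by the liver, but lung cells also make components locally. C1q, the recognition unit of the classical pathway, is put together from the products of C1qa, C1qb and C1qc and comes largely from macrophages. It activates proteases that cleave C4 and C2, and the resulting enzyme cleaves C3. In the alternative pathway factor D, encoded by Cfd, cleaves factor B, encoded by Cfb, when factor B is bound to C3b. The resulting enzyme cleaves C3 and amplifies the response. Hc encodes C5, whose fragments attract neutrophils and start the membrane attack complex. Factor I, encoded by Cfi, is the protease that inactivates C3b and C4b. FVB mice are known to carry Hc0, a null allele with which no C5 protein is secreted, so an Hc value on these lungs refers to RNA alone.

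The regions around the transcription starts of C1qb, C1qc and Hc are shown because the C1q genes lie side by side on chromosome 4 yet gave different readings, and because Hc had the widest gap in rank between the cell line and the lungs among the 7 genes. They are RefSeq sequences of build GRCm38.p6, from 250 bases before to 50 bases after the start, read 5′ to 3′ on the minus strand, on which all 3 genes lie. The C1qb window is chr4:136886151-136886450, the C1qc window chr4:136892865-136893164 and the Hc window chr2:35061363-35061662. Capitals mark matches, on either strand, to 4 motifs. They are GAGGAA, an ETS core of the kind bound by the myeloid factor PU.1, TTNNGNAA, a C/EBP type, an interferon response element type and an NF-kB type.
C1qb: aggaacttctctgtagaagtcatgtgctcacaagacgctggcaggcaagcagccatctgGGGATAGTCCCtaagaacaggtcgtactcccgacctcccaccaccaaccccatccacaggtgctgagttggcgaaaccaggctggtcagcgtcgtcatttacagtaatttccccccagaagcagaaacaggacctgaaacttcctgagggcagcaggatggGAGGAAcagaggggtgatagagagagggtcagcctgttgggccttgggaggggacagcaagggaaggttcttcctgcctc
C1qc: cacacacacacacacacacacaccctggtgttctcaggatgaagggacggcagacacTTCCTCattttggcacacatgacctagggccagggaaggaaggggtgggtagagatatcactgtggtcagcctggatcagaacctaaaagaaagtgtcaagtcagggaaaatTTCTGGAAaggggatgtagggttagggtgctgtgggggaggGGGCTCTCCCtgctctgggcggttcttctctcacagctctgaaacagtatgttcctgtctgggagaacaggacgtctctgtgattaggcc
Hc: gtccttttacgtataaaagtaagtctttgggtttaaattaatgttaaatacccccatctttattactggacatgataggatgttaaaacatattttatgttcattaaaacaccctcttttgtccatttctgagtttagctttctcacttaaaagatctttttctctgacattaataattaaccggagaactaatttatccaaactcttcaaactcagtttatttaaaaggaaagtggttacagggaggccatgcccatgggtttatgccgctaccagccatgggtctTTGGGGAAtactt

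The C1qb window held GAGGAA from position -30 and a pair of overlapping NF-kB type matches on opposite strands from -191 and -190. The C1qc window held GAGGAA on the opposite strand from -193, TTNNGNAA from -81 and the NF-kB type on the opposite strand from -40. The Hc window held a single match, TTNNGNAA from position 38 after the start. The interferon response type was in none of these 3 windows. Over all 32851 windows of that table, 28.3% held GAGGAA, 40.7% TTNNGNAA, 3.44% the interferon response type and 20.7% the NF-kB type, so matches of this kind are common. The windows differed in composition, with a GC content of 56.3% for C1qb, 53.3% for C1qc and 34.7% for Hc. No binding was measured in this study.

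The deposited log2 columns were not on one scale: their medians were 4.96 on FULA 1, 1.22 on the urethane lung and 0.08 on the saline lung. Each gene is therefore given by its percentile rank among 41345 probe sets on its own array, which no scaling that keeps the order can change, and by its log2 level after quantile normalization of the arrays to the mean of their sorted values. Probe sets differ in how strongly they bind, so ranks and levels are compared across arrays for 1 gene and not between genes. The exception is a list of genes with similar ranks, given after the markers. As a background mark the 95th percentile of 1105 olfactory receptor genes was taken, a family transcribed chiefly in the olfactory epithelium. It lay at rank 46.5 on FULA 1, 59.2 on the urethane lung and 59.6 on the saline lung, or 1.96, 2.44 and 2.46 on the normalized log2 scale in the same order. No size of difference is given where neither array of a comparison exceeded the mark. Where 1 array did not, a bound is given, with the mark standing in for that array's value. The lungs matched their label: all 9 alveolar type II markers, all 6 club cell markers and all 6 endothelial markers lay above the mark on both. On FULA 1, 7 of 9 alveolar type II, 4 of 6 club cell, 3 of 6 endothelial, 0 of 8 neutrophil and 0 of 5 lymphocyte markers did.

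Above the mark were 2 of the 7 complement genes on FULA 1, 5 on the urethane lung and 5 on the saline lung. Of all genes 58.2% lay above it on FULA 1, 48.9% on the urethane lung and 49.5% on the saline lung. The same 5 genes, C1qa, C1qb, C4b, Hc and Cfb, made up both lung counts; 44.1% of all genes were above the mark on both lungs. C1qb and Cfb were above it on all 3 arrays, as were 39.5% of genes. C1qc and Cfi were above it on none, as were 33.4% of genes.

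**Figure D1:**
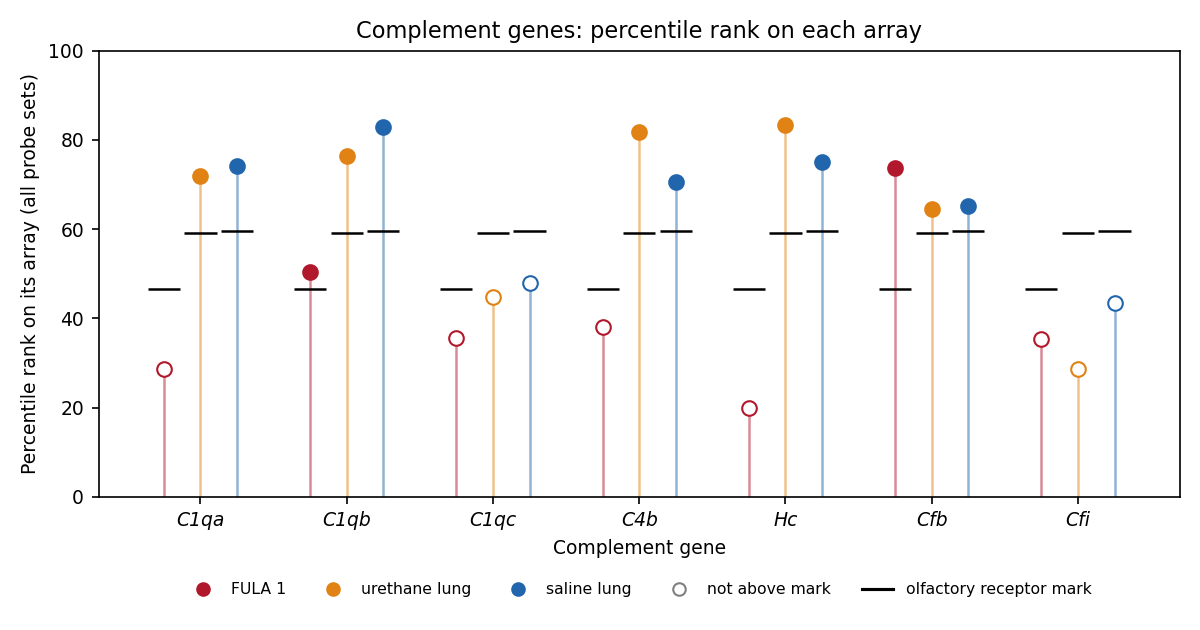
Percentile rank (vertical axis, 0 to 100, among all probe sets of an array) of the 7 complement genes on the FULA 1, urethane lung and saline lung arrays, 1 point per array. Black bars are the olfactory receptor mark (46.5, 59.2 and 59.6) and open points lie at or below it. C1qa, C4b and Hc are above the mark on both lungs and below it on FULA 1, while Cfb is above it on all 3.

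The recognition genes C1qa and C1qb were lower on the cell line than on either lung, and C1qc could not be read above background. In bulk RNA of this kind fewer cells of a type and less RNA per cell cannot be told apart. FULA 1 is 1 cultured line and the lungs hold many cell types, so cell composition cannot be told apart from tumour state or culture. C1qa had a percentile rank of 28.7 on FULA 1, 71.9 on the urethane lung and 74.1 on the saline lung, and normalized log2 levels of 1.49, 3.12 and 3.26 on those arrays. Both lungs were above the mark and the cell line below it. The difference of C1qa was -1.62 (log2, FULA 1 minus urethane lung), and its bound was -1.16. Against the saline lung the difference was -1.77 and the bound -1.30. C1qb had ranks of 50.3 on FULA 1, 76.4 on the urethane lung and 82.9 on the saline lung, with levels of 2.10, 3.44 and 4.01. The C1qb value on FULA 1 was only just above the mark and was shared by 36 probe sets there. Its differences were -1.35 (FULA 1 minus urethane lung) and -1.91 (FULA 1 minus saline lung), and both readings were above the mark in each. C1qc stood at ranks 35.5 on FULA 1, 44.8 on the urethane lung and 47.9 on the saline lung. Its urethane lung value was one shared by 1089 probe sets, so that reading had almost no resolution. C1q needs all 3 chains, and its C1qc probe set gave no reading above background even where those of C1qa and C1qb did; why was not tested.

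Between the lungs the C1q genes were close. C1qa differed by -0.14 (log2, urethane lung minus saline lung) and C1qb by -0.56, and C1qc was below the mark on both. The rank differences were -2.13 points for C1qa and -6.52 points for C1qb. The central 95% of 12519 genes bright enough to compare ran from -0.89 to 1.08 in this contrast, and both C1q differences lie inside it.

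C4b, whose product becomes part of the C3-cleaving enzyme, and Hc were higher on the urethane lung than on the saline lung by less than 2-fold, and lower on FULA 1 than on both. C4b had ranks of 38.0 on FULA 1, 81.7 on the urethane lung and 70.5 on the saline lung, and levels of 1.73, 3.88 and 3.03. It lay below the mark on the cell line. Its difference was 0.85 (log2, urethane lung minus saline lung), and 5.29% of the genes compared were higher than that. FULA 1 minus urethane lung was -2.16 (bound -1.92) and FULA 1 minus saline lung -1.30 (bound -1.07). C4b has a near-identical copy, C4a, which is annotated as a transcribed pseudogene in RefSeq, so the split of signal between them is uncertain. C4a had ranks of 57.6 on FULA 1, 11.9 on the urethane lung and 25.8 on the saline lung, and was above the mark on FULA 1 alone. Its FULA 1 level of 2.37 lay below the marks of both lungs. The bounds were -0.08 (log2, FULA 1 minus urethane lung) and -0.10 (FULA 1 minus saline lung), so no higher level on the cell line is shown.

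Hc, the C5 gene, had ranks of 19.9 on FULA 1, 83.3 on the urethane lung and 75.02 on the saline lung, and levels of 1.26, 4.03 and 3.34. On FULA 1 it was higher than 68.7% of the olfactory receptor genes, a level well inside background. It was higher than 99.5% of them on the urethane lung and 98.6% on the saline lung. The Hc difference was 0.69 (log2, urethane lung minus saline lung), with 8.12% of genes compared above it, and its saline lung value was shared by 141 probe sets. FULA 1 minus urethane lung was -2.77 (bound -2.06), a difference below which 2.15% of the genes compared lay. FULA 1 minus saline lung was -2.08 (bound -1.37), with 5.04% of genes lower.

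Cfb was the only one of the 7 genes that FULA 1 held at a level above the mark and above both lungs. Its ranks were 73.7 on FULA 1, 64.4 on the urethane lung and 65.2 on the saline lung, with levels of 3.23, 2.69 and 2.74. The FULA 1 value exceeded 100% of the olfactory receptor genes, and each lung value exceeded 96.7% of them. The differences stayed under 2-fold, at 0.54 (log2, FULA 1 minus urethane lung) and 0.49 (FULA 1 minus saline lung). Centring the arrays on one median gave 1.497 and 1.54 for the same differences, and subtracting a lowess fit gave 0.32 and 0.22. Between the lungs Cfb differed by -0.04, a value of no fixed sign, since it was 0.04 and 0.02 under those scalings and -0.07 with the FULA 1 distribution as target. Its neighbour C2, which encodes the related protease of the classical pathway, lay below the mark on all 3 arrays, at ranks 23.9, 14.1 and 38.6 on FULA 1, the urethane lung and the saline lung.

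Cfi, the one inhibitor among the genes, was not above the mark on any array. Its ranks were 35.3 on FULA 1, 28.6 on the urethane lung and 43.5 on the saline lung, and the FULA 1 value was shared by 102 probe sets. No size of difference is given for it.

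At a difference of at least 2-fold, counted only where the higher value reached a floor of 2.37, the median over genes and arrays, 0 of the 7 complement genes were higher and 0 were lower on the urethane lung than on the saline lung. In each comparison 5 of the 7 reached the floor, C1qc and Cfi being the exceptions. Of all genes bright enough to compare, 3.27% were higher and 1.31% lower there (4.58% either way), so a count of 0 among 7 is close to the background. With values held at the mark the median difference was 0 over the 7 genes and 0 over all genes. Against the urethane lung, 4 of the 7 genes were lower on FULA 1 (C1qa, C1qb, C4b and Hc) and 0 higher. Of the 13264 genes compared 19.5% were lower and 22.1% higher (41.5% either way). The same 4 genes were lower on FULA 1 than on the saline lung and 0 were higher, where 22% of 13590 genes were lower and 22.6% higher (44.6% either way). The medians over the 7 genes were -1.35 against the urethane lung and -1.30 against the saline lung, and those over all genes -0.08 and -0.11. With values held at the mark they were -1.16 and -1.07 over the 7 genes, and 0 over all genes in both. Centring the arrays on one median left 3 genes lower than on the urethane lung, with C1qb at -0.99, and the lowess fit left 3 lower than on the saline lung, with C4b at -0.93. The comparisons of FULA 1 with the lungs share the FULA 1 array, and all comparisons share arrays, so these counts are not independent.

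**Figure D2:**
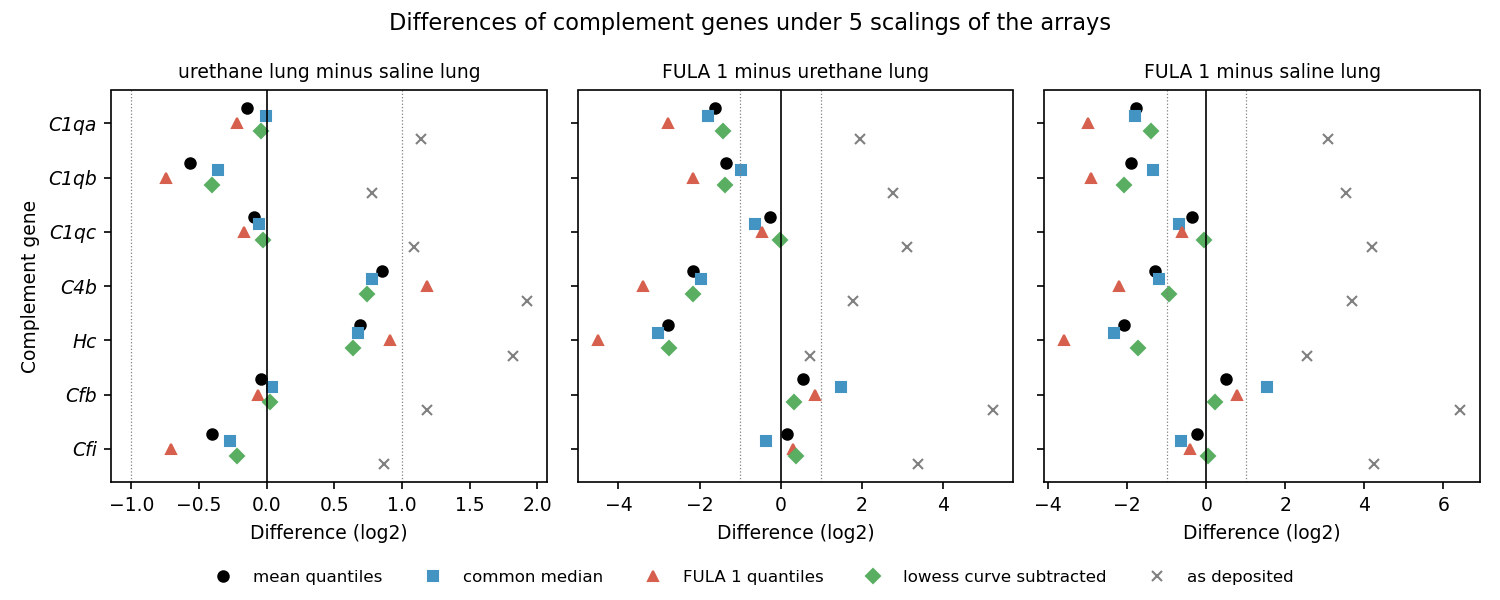
Log2 differences (horizontal axes) of the 7 complement genes in the 3 comparisons under 5 ways of scaling the arrays, 1 symbol each; dotted lines mark 2-fold. C1qa, C1qb, C4b and Hc are negative on FULA 1 under each scaling except the deposited one, where FULA 1 has the highest median. C4b and Hc are positive on the urethane lung under all 5.

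The direction of the FULA 1 comparisons rests on bringing the arrays to one scale. As deposited, Hc was listed at 3.42 on FULA 1, 2.69 on the urethane lung and 0.87 on the saline lung, so the cell line held the highest number. The median gene differed by 3.69 (log2, FULA 1 minus urethane lung) and 4.80 (FULA 1 minus saline lung) in those columns, and Hc by only 0.73 and 2.55. Under the 4 other scalings Hc ranged from -4.51 to -2.74 against the urethane lung and from -3.59 to -1.72 against the saline lung. C4b ranged from 0.74 to 1.19 in the urethane lung against the saline lung, and passed 2-fold only where the FULA 1 distribution was the normalization target. Hc ranged there from 0.64 to 0.91.

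The rest of the pathway was followed through a list of 50 further genes, of which 47 had a probe set. Of these 21 lay above the mark on FULA 1, 17 on the urethane lung and 17 on the saline lung. The shares of all genes above it were 58.2% on FULA 1, 48.9% on the urethane lung and 49.5% on the saline lung. All genes thus also had their highest share on FULA 1. In the lungs' comparison 20 of the 47 reached the floor, and 1 was at least 2-fold higher on the urethane lung and 0 lower, beside 3.27% and 1.31% of all genes. That gene was C1rb, which encodes a C1r protease that C1q activates. It had ranks of 59.1 on FULA 1, 69.3 on the urethane lung and 35.1 on the saline lung, and its difference of 1.29 shrinks to a bound of 0.48 because the saline lung value lay below the mark. Its close relative C1ra was at 0.70, with ranks of 38.3 on FULA 1, 74.5 on the urethane lung and 62.6 on the saline lung. The C1ra value on the saline lung was shared by 400 probe sets. C1ra and C1rb are near copies and can share signal, so both values are uncertain. In each comparison with FULA 1, 21 of the 47 reached the floor. Against the urethane lung 10 were lower on FULA 1 and 3 higher (Clu, C3ar1 and C1qbp), beside 19.5% and 22.1% of all genes. Against the saline lung 8 were lower and 3 higher (Cpn1, C3ar1 and C1qbp), beside 22% and 22.6%. With values held at the mark the median over the 47 was 0 in both, as over all genes.

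Of the genes listed under the start of the classical and lectin pathways, Colec12, a scavenger receptor collectin, was the lowest on FULA 1 relative to the saline lung. It had ranks of 48.9 on FULA 1, 91.9 on the urethane lung and 91.7 on the saline lung, and a difference of -3.19 (log2, FULA 1 minus saline lung). The Colec12 value on the urethane lung was shared by 71 probe sets. Fcnb, a ficolin of myeloid cells, was below the mark on all 3 arrays. Among the terminal components C7 and C6, whose products build the membrane attack complex, could be read on the lungs alone. C7 had ranks of 27.9 on FULA 1, 87.7 on the urethane lung and 85.0 on the saline lung, and differed by -2.75 (log2, FULA 1 minus saline lung), with a bound of -2.26. C6 had ranks of 32.1, 68.2 and 66.7 on those arrays, a difference of -1.24 and a bound of -0.86. The C6 value on the urethane lung was shared by 559 probe sets. C8a and C8g were below the mark throughout.

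Regulators differed in both directions. Serping1, which encodes the C1 inhibitor, had ranks of 47.2 on FULA 1, 96.2 on the urethane lung and 97.4 on the saline lung, with a difference of -5.01 (log2, FULA 1 minus saline lung). Its deposited value was 4.89 on both lungs, in columns that do not share a scale, and its normalized difference was -0.58 (urethane lung minus saline lung). That difference therefore comes from the rescaling alone. Dcn, Cdh5 and Scgb3a1 also had identical deposited values on both lungs. Car4, Cldn5 and Scgb3a2 had them on FULA 1 and the urethane lung, and Emcn on all 3 arrays. Cdh5, Cldn5, Emcn, Scgb3a1 and Scgb3a2 are among the club cell and endothelial markers by which the lungs matched their label. Why these values are identical was not tested. Cfp, the gene of properdin, which stabilizes the alternative pathway enzyme, was at -1.45 with ranks of 55.5, 78.0 and 79.9 on FULA 1, the urethane lung and the saline lung. Cpn1, a chain of the carboxypeptidase that inactivates C3a and C5a, was higher on FULA 1 than on the saline lung by 1.07. Of the membrane regulators, Susd4 was at -1.56 (FULA 1 minus saline lung) and Cd59a, an inhibitor of the membrane attack complex, at 0.80. Cd59a had ranks of 77.0 on FULA 1, 60.03 on the urethane lung and 64.3 on the saline lung. Cd55, the decay-accelerating factor gene, was above the mark on the saline lung alone, where FULA 1 minus saline lung was -0.69 with a bound of -0.55. Cd55b was below the mark on all 3 arrays.

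Among receptors Cd93, found on endothelial and myeloid cells, was at -3.20 (log2, FULA 1 minus saline lung), with ranks of 50.5 on FULA 1, 94.0 on the urethane lung and 92.1 on the saline lung. Itgb2, the common chain of complement receptors CR3 and CR4, was at -0.93. C3ar1, the receptor for C3a, was above the mark on FULA 1 alone, at rank 65.8 against 10.4 on the urethane lung and 22.5 on the saline lung, and was higher by at least 0.30 than on the saline lung. C1qbp, a mitochondrial protein that also binds C1q, was higher on FULA 1 than on the saline lung by 1.37.

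**Figure D3:**
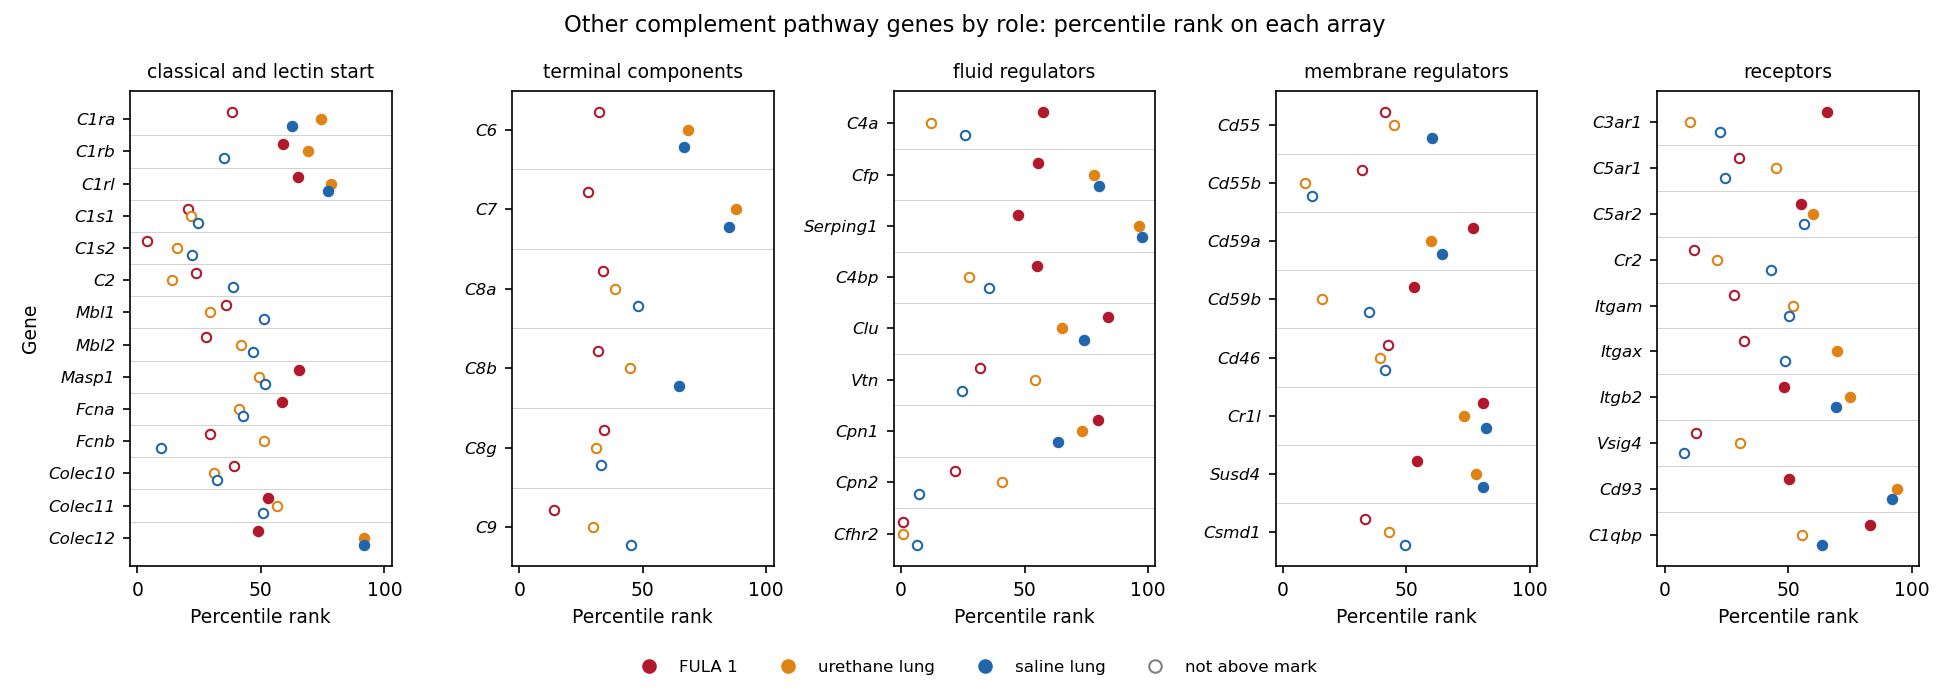
Percentile rank (horizontal axes) of 47 further complement pathway genes on the FULA 1, urethane lung and saline lung arrays, in 5 panels by role; open points lie at or below the olfactory receptor mark. Serping1, C7, Colec12 and Cd93 are high on both lungs and low on FULA 1, and C3ar1 is above the mark on FULA 1 alone.

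Marker genes of the cells that could supply these transcripts were set beside them. Among all genes 58.2% lay above the mark on FULA 1, 48.9% on the urethane lung and 49.5% on the saline lung. Beside the C1q genes, 4 of 12 monocyte and interstitial macrophage markers were above the mark on FULA 1, 7 on the urethane lung and 7 on the saline lung. Their median ranks were 27.9 on FULA 1, 69.6 on the urethane lung and 71.6 on the saline lung, and their summed linear levels after normalization were 77.8, 135 and 162 on those arrays. The list's highest gene in the lungs was Lyve1, a hyaluronan receptor of perivascular macrophages and lymphatic vessels, at ranks 62.5 on FULA 1, 93.5 on the urethane lung and 93.6 on the saline lung. Csf1r, the receptor gene that defines macrophages, was below the mark on FULA 1 at rank 45.8, against 69.6 on the urethane lung and 75.5 on the saline lung. Mrc1, a mannose receptor gene that both macrophage lists hold, went the other way, with ranks of 91.7 on FULA 1, 69.6 on the urethane lung and 55.5 on the saline lung. Between the lungs the list's median difference was -0.05, and Pf4 at -1.15 and Ly6c2 at -1.23 (bound -1.03) were its only members at least 2-fold apart. Alveolar macrophage markers had 5 of 9 above the mark on FULA 1, 7 on the urethane lung and 7 on the saline lung, with summed levels of 131, 144 and 180. Few genes carried these sums. On FULA 1 the largest were Pparg, a nuclear receptor gene also active in other cell types, at a log2 level of 5.81, and Mrc1 at 5.24. On the lungs it was Car4, which capillary endothelium also makes, at 6.25 on the urethane lung and 6.85 on the saline lung. The deposited Car4 value was 4.73 on FULA 1 and on the urethane lung alike. Pparg was lower on the lungs, at 3.47 on the urethane lung and 2.49 on the saline lung. With values held at the mark, the alveolar macrophage list's median difference was 0 for FULA 1 against each lung. Without holding, 3 of the 9 markers were higher on FULA 1 than on the urethane lung and 6 lower. Against the saline lung 4 were higher and 5 lower. The part of macrophage number in the C1q values was not tested.

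Hc was set beside the alveolar type II list, since these cells are known to make C5. Of its 9 markers 7 were above the mark on FULA 1, 9 on the urethane lung and 9 on the saline lung, with summed levels of 66.6, 3986 and 3285. Sftpc, surfactant protein C, had ranks of 53.5 on FULA 1, 99.8 on the urethane lung and 99.8 on the saline lung. The list's median difference was 0.37 (log2, urethane lung minus saline lung), and -0.33 once the arrays were centred on one median, where Hc was at 0.68. Abca3, at 2.23 (urethane lung minus saline lung), was the list's only member at least 2-fold apart between the lungs. C4b was set beside 10 fibroblast markers, of which 4 were above the mark on FULA 1 and 9 on each lung. Their summed levels were 55.4 on FULA 1, 643 on the urethane lung and 641 on the saline lung, and their median difference between the lungs was -0.01. Mesothelial markers had 3 of 6 above the mark on FULA 1, 5 on the urethane lung and 6 on the saline lung, and median differences of -1.32 (FULA 1 minus urethane lung) and -1.74 (FULA 1 minus saline lung). Msln, the mesothelin gene, stood apart from the other 5 with log2 levels of 6.66 on FULA 1, 4.46 on the urethane lung and 3.50 on the saline lung. It carried most of a summed level of 119 on FULA 1, against 71.0 on the urethane lung and 71.9 on the saline lung. The hepatocyte list gave little reading: 2 of 8 markers were above the mark on FULA 1, 1 on the urethane lung and 2 on the saline lung, with summed levels of 26.1, 28.1 and 28.4. Neutrophil markers had 4 of 8 above the mark on each lung, with summed levels of 21.3 on FULA 1, 73.7 on the urethane lung and 93.1 on the saline lung. Retnlg, at -1.11 (urethane lung minus saline lung), was the only neutrophil marker at least 2-fold apart between the lungs. The part of these cell types in the Hc and C4b values was not tested.

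**Figure D4:**
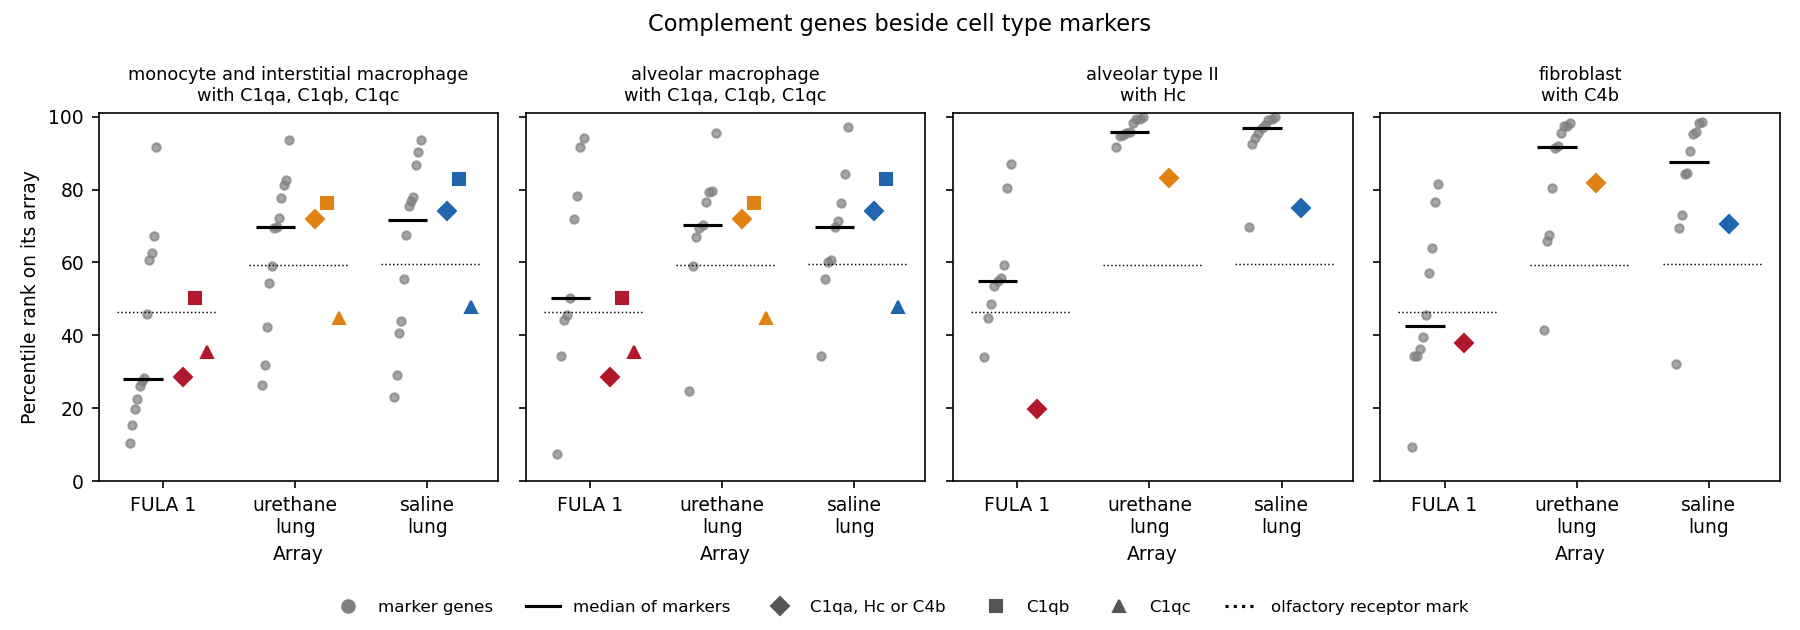
Percentile rank (vertical axis) of cell type markers (grey points, black bar at their median) and of the complement genes set beside them (coloured symbols) on the FULA 1, urethane lung and saline lung arrays; dotted lines are the olfactory receptor mark. C1qa, C1qb and Hc each have a lower rank on FULA 1 than on either lung, and so do the medians of the macrophage and alveolar type II lists beside them. The median difference of the alveolar macrophage list is -0.60 (log2, FULA 1 minus urethane lung) and -0.85 (FULA 1 minus saline lung), and 0 in both with values held at the mark.

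Among 12753 named genes with at least 1 value past the median of all genes, those with the most similar ranks on the 3 arrays were found for each complement gene by the sum of absolute rank differences. The nearest to C1qa were Rpl31-ps21 (1.72 points in sum) and Cd3g (2.76). The nearest to C1qb were Stmn3 (2.07) and Tspear (3.02), and those to C4b were Hes2 (3.15) and Tmem212 (3.36). Cfb was nearest to Trappc9 (2.24) and Tmem144 (2.76), and Hc to Fam183b (8.68) and Matn4 (9.01). C1qc and Cfi, which were not above the mark on any of the 3 arrays, are left out. Such likeness describes 3 ranks of 2 probe sets that may bind unequally, and no more.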

How the data were processed

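RNA from 3 samples was measured on 1 array each. The deposited table holds the authors' log2 values, 1 per probe set and array. Per the submitters' processing notes they were made by RMA (robust multi-array average), and per the series' design text in GeneSpring GX 12.5, with a background setting not given in the sources used here. Scale and centring between the columns stay unknown. Scanner files were not used here.

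Of 41345 probe sets 23521 carried 1 gene symbol, 1814 several (not used) and 16010 none. Symbols were updated through the RefSeq table of GRCm38.p6, which matched 23328. Where a gene had several probe sets, as 1082 genes did, their values were averaged. Arrays were quantile-normalized (numpy 2.4.6, pandas 2.3.3), and lowess (span 0.3) came from statsmodels 0.14.6. The normalization was tested on simulated arrays that shared the saline lung profile, with few probe sets changed. Recovery was checked only for urethane lung minus saline lung. Such a test cannot vouch for the FULA 1 comparisons. There 41.5% (urethane lung) and 44.6% (saline lung) of the genes compared were at least 2-fold apart. Members and lists were chosen with earlier results of these data known, and the olfactory mark was known from them too. Outside the likeness and acute phase passages, genes named beyond the 7 were chosen as follows. Pathway genes were those at least 2-fold apart between the lungs and the 2 highest and 2 lowest per role (FULA 1 minus saline lung). For markers it was the highest in the lungs of the macrophage and alveolar type II lists. The highest of the fibroblast, mesothelial, hepatocyte and neutrophil lists are not named. Further genes, C2, Clu, Csf1r, Mrc1, Pparg, Msln, Pf4, Ly6c2, Abca3 and Retnlg, were chosen after their values were seen. So were Dcn, Cdh5, Cldn5, Emcn, Scgb3a1 and Scgb3a2, named for identical deposited values. Adipocyte markers, listed beside Cfd, are not described in detail, with 6 of 9 above the mark on FULA 1 and 5 on each lung. Of 5 lymphocyte markers 2 were above it on each lung.

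Other settings were the deposited scale, a common median, FULA 1 quantiles, lowess, thresholds of 1.5-fold and 4-fold, no floor or the 75th percentile, and the highest probe set of a gene. Values held at the mark were added after the data were seen. With 1 array per group the number of arrays limits the precision.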

Additional observations from a re-analysis of the deposited data

How the results depend on the processing

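The counts of genes at least 2-fold apart were recomputed under 10 other settings for the 7 complement genes and the 47 others. Of 120 recomputed counts 79 stayed within 1.5 times the reported one and 41 did not; where a cause is not plain from the setting itself, the cause was not tested.

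In the deposited values the FULA 1 column has the highest median, though not the highest value for every gene. The complement genes counted as higher were then 3 (urethane lung against saline lung), 6 (FULA 1 against urethane lung) and 7 (FULA 1 against saline lung). In the comparisons with FULA 1, 0 were lower on FULA 1. The others were 10, 43 and 45 higher in the same order, and 0 lower on FULA 1. Signs then turned for C1qa at 1.95, C1qb at 2.75, C4b at 1.77 and Hc at 0.73 (FULA 1 minus urethane lung), and at 3.09, 3.54, 3.69 and 2.55 for those genes (FULA 1 minus saline lung).

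With a common median 1 complement gene, Cfb, was higher on FULA 1 than on either lung, and C1qb, at -0.99, was no longer counted as lower than on the urethane lung. Of the others 8 were higher against the urethane lung and 7 against the saline lung, and 0 were higher and 1 lower between the lungs. With FULA 1 quantiles 1 complement gene, C4b, was higher on the urethane lung than on the saline lung, and of the others 3 were higher and 2 lower. FULA 1 then had 7 others higher against the urethane lung and 8 against the saline lung. Lowess took C4b, at -0.93, out of the count lower than on the saline lung. It left 0 others higher between the lungs, as did the 75th percentile floor, a 4-fold threshold and values held at the mark.

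A 1.5-fold threshold gave 2 complement genes higher between the lungs and 0 lower, 3 others higher and 3 lower, and 7 others higher on FULA 1 than on each lung. A 4-fold threshold left 2 complement genes lower on FULA 1 against the urethane lung and 1 against the saline lung, with 4 others lower and 0 higher in each. The 75th percentile floor left 2 and 1 complement genes in the same order, and 4 others lower against the urethane lung. No floor gave 3 others higher between the lungs and 5 higher on FULA 1 against the urethane lung. The highest probe set in place of the mean changed no count.

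No paired analysis was possible because each group holds 1 array. Signal over background limits C1qc and Cfi on every array, and C1qa, C4b and Hc on FULA 1.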

Other observations

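Acute phase and cytokine genes, which respond to many of the signals that also act on complement genes, were read from a list of 13. Of these 10 lay above the olfactory receptor mark on FULA 1, 9 on the urethane lung and 9 on the saline lung. The shares of all genes above it were 58.2%, 48.9% and 49.5% in the same order. Hp, the gene of the haemoglobin-binding protein haptoglobin, had percentile ranks of 49.3 on FULA 1, 99.2 on the urethane lung and 99.0 on the saline lung. Il1b, the interleukin 1 beta gene, had ranks of 26.9 on FULA 1, 89.0 on the urethane lung and 80.9 on the saline lung, and differed by 0.95 (log2, urethane lung minus saline lung). Saa3, a serum amyloid A gene, was above the mark on FULA 1 alone, at rank 61.2. Its bounds were small, at 0.10 (log2, FULA 1 minus urethane lung) and 0.08 (FULA 1 minus saline lung). Cp, the ceruloplasmin gene, had ranks of 95.8 on FULA 1, 93.3 on the urethane lung and 91.8 on the saline lung. Il6 was below the mark on all 3 arrays. Over the 13 genes the median difference was -0.06 (log2, urethane lung minus saline lung), with 6 above 0 and 7 below. Tnf, at -0.58, went the other way from Il1b. The genes named from this list were picked by no rule set beforehand.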
